A study of Homo sapiens with 6 samples.

Results

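PDGF and VEGF genes were described here by the RNA counts of 9 named members, 6 ligand genes (PDGFA, PDGFB, PDGFC, VEGFA, VEGFB and VEGFC) and 3 receptor genes (PDGFRA, PDGFRB and FLT1), taken by symbol from the 42902 Gene IDs of the deposited table. All 9 were found. The cells were PANC-1, an established line from a human pancreatic ductal carcinoma. The 3 libraries called shNC came from cells labelled wild type (WT) with a control hairpin (shControl), and the 3 called shRRM2 from cells in which a hairpin targets RRM2, the gene for the small subunit of ribonucleotide reductase, an enzyme of deoxynucleotide synthesis. The study asked which genes lie downstream of RRM2. The labels give no time, no number of hairpins or clones, and nothing on whether libraries of 1 group were separate cultures, so the p-values cover only the variation among these libraries, part or all of which may be technical.

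Platelet-derived growth factors are secreted dimers of A, B, C and D chains. PDGFRA binds the A, B and C chains, and PDGFRB binds mainly the B and D chains. Both receptors are tyrosine kinases best known on fibroblasts and the mural cells of vessels. Vascular endothelial growth factors belong to the same cystine-knot superfamily. VEGFA binds FLT1 and KDR, VEGFB binds FLT1, and VEGFC binds FLT4, all kinases best known on endothelial cells, with the neuropilins NRP1 and NRP2 as coreceptors. In pancreatic carcinoma the tumour cells are known as a source of these ligands, and the receptors are better known from the stroma.

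Of the 9 members, 6 were detected, meaning that they passed edgeR's filter on low counts. PDGFRB was the only receptor among them, and it rose 3.15-fold in shRRM2. The ligands did not move together. PDGFB and VEGFC rose 1.54-fold and 1.64-fold, PDGFA and VEGFB fell to 0.763 and 0.784 of the control level, and VEGFA did not pass the test at 1.04-fold. So 3 members were called higher and 2 lower by edgeR's quasi-likelihood test with Benjamini-Hochberg adjustment over all 15866 tested genes (threshold 0.05). Against this stands a background in which 52.1% of all tested genes passed, 26.0% higher and 26.1% lower, so that 5 called of 6 tested is no result about these genes as a group. In bulk RNA, a change in how many cells hold a transcript and a change in its amount per cell cannot be told apart.

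Promoter sequence is shown for the members that changed, as the stretch before the transcription start that no annotated exon touches. Of the 9 members, 6 had 1 or more windows in the RefSeq promoter table (GRCh38.p14), 10 windows in all. PDGFB, PDGFC and VEGFA were not matched. The 4 stretches below are from PDGFRB and VEGFC, which rose, and from PDGFA and VEGFB, which fell, the one of PDGFA being the longest exon-free stretch among its 4 windows. They lie at chr5:150155873-150156095, chr4:176792923-176793172 and chr7:519847-519959 on the minus strand and at chr11:64234353-64234537 on the plus strand. The PDGFA stretch lies within the span of PDGFA (497258 to 520700), so it precedes a transcription start inside the gene, not the outermost one. Capitals mark matches on either strand to CCAAT (the CCAAT box), GGGCGG (the GC box of SP1), ACGTG (the core of a hypoxia response element) or CAGAC (a SMAD element), and adjoining or overlapping matches run together.
PDGFRB: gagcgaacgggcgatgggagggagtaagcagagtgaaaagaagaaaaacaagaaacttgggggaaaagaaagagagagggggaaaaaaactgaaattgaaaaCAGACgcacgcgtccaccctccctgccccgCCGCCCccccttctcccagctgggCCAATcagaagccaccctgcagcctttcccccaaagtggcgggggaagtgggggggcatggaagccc
VEGFC: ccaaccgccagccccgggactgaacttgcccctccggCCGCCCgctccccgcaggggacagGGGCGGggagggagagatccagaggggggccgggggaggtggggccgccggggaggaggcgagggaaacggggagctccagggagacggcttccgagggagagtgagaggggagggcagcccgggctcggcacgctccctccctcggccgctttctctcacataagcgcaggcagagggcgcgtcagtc
PDGFA: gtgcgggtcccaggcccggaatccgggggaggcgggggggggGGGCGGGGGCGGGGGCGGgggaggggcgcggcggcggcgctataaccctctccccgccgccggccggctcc
VEGFB: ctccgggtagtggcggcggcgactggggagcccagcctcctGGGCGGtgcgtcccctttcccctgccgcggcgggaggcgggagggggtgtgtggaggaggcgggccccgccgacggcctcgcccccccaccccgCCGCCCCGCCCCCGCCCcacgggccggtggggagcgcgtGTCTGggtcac
The PDGFRB stretch holds 1 CCAAT box, which begins 94 bases before the start, 1 GC box and 1 SMAD element. The VEGFC stretch holds 2 GC boxes and no match to the other motifs. Over the 250 bases before the start, the window of VEGFB holds 6 GC boxes and 1 SMAD element, and the printed window of PDGFA holds 3 GC boxes. No window of these members holds ACGTG. Among all 35116 windows of this length in the table, 32% hold CCAAT, 42.6% GGGCGG, 18.5% ACGTG and 38% CAGAC. These matches describe the letters only.

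RRM2 itself had 3567, 4435 and 3342 counts in shNC against 716, 808 and 716 in shRRM2, and its log2 fold change was −2.31 (adjusted p = 3.66e-29). The libraries held 16606947 to 23300433 counts each, so the limit that a count of 0 allows (3 counts) lay between 0.129 and 0.181 CPM (the count of a gene rescaled so that libraries of different depth compare). Such limits and the counting intervals below cover counting error only. The keratins of the labelled epithelial cell type were abundant, KRT8 going from 1080 ± 15.3 to 1634 ± 33.0 CPM in shRRM2 (SD, n = 3 each), although KRT19 had 0 to 6 counts per library, and none of 10 acinar and endocrine markers passed the filter.

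PDGFRB (Gene ID 5159, chromosome 5, 150113839 to 150155845, GRCh38) encodes the receptor for the B chain. It had 166, 202 and 149 counts in shNC against 478, 554 and 558 in shRRM2. On the scale of CPM these were 9.47, 8.75 and 9.04 against 27.0, 27.9 and 30.8, so every shRRM2 library stood well above every shNC library. The log2 fold change was 1.65 (SE 0.0969, 95% interval 1.46 to 1.85, adjusted p = 6.95e-16). It ranked 276 among 15866 tested genes ordered from the largest rise.

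PDGFRA (Gene ID 5156, chromosome 4, 54229293 to 54298245), the receptor that binds the A chain, had 2, 0 and 0 counts in shNC against 0, 0 and 1 in shRRM2. Summed over 3 libraries, the ratio of shRRM2 to shNC was 0.526 with an exact 95% counting interval from 0.00891 to 10.1, so no difference was detectable at this depth. FLT1 (Gene ID 2321, chromosome 13, 28300346 to 28495128), a kinase that also occurs as a soluble decoy, had 0, 0 and 1 counts in shNC against 1, 3 and 1 in shRRM2. Its ratio of 5.26 had a counting interval from 0.588 to 249. Both receptor genes were thus at or near the limit of detection in all 6 libraries.

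The ligand PDGFB (Gene ID 5155, chromosome 22, 39223359 to 39244982) had 260, 292 and 222 counts in shNC against 364, 384 and 415 in shRRM2. In CPM it went from 14.8, 12.7 and 13.5 to 20.6, 19.3 and 22.9, with no overlap of the groups. The log2 fold change was 0.62 (SE 0.0995, 95% interval 0.42 to 0.82, adjusted p = 3.03e-06). PDGFA (Gene ID 5154, chromosome 7, 497258 to 520700), the chain that signals through PDGFRA, moved the other way. Its counts were 326, 440 and 358 in shNC and 244, 338 and 260 in shRRM2, or 18.6, 19.1 and 21.7 CPM against 13.8, 17.0 and 14.3 CPM. All shRRM2 libraries were lower than all shNC libraries in CPM, although shRRM2 replicate 2 came close, and the log2 fold change was −0.39 (SE 0.101, 95% interval −0.59 to −0.18, adjusted p = 0.00145). The noncoding gene PDGFA-DT overlaps the 5′ end of PDGFA, and since the strand setting of the counting is not given, reads there may have been shared. It had 52 to 141 counts per library.

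PDGFC (Gene ID 56034, chromosome 4, 156760454 to 156971799), a chain that is secreted in latent form and cleaved to become active, stayed below the filter. It had 0, 1 and 0 counts in shNC against 6, 2 and 5 in shRRM2, so each shRRM2 library held more counts than any shNC library. The ratio of summed counts was 13.7 with a counting interval from 2.05 to 581, a comparison of reads that does not include the spread between libraries. With no filter, edgeR gave an adjusted p of 0.0688, so the difference did not pass.

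VEGFA (Gene ID 7422, chromosome 6, 43770211 to 43786487), the main ligand of endothelial growth and permeability, had 1085, 1375 and 1069 counts in shNC against 1124, 1332 and 1134 in shRRM2. In CPM these were 61.9, 59.6 and 64.9 against 63.5, 67.0 and 62.6, and the groups overlapped. The log2 fold change of 0.05 had a 95% interval from −0.05 to 0.16 (adjusted p = 0.413), which corresponds to 0.963-fold to 1.12-fold. Counts per gene do not separate its splice forms.

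VEGFB (Gene ID 7423, chromosome 11, 64234584 to 64239264), a ligand of FLT1, had 1168, 1452 and 939 counts in shNC against 843, 1019 and 860 in shRRM2. In CPM it went from 66.7, 62.9 and 57.0 to 47.6, 51.2 and 47.4, all lower than any shNC library. The log2 fold change was −0.35 (SE 0.0596, 95% interval −0.47 to −0.23, adjusted p = 7.41e-06). VEGFC (Gene ID 7424, chromosome 4, 176683538 to 176792922), the ligand of lymphatic growth, was the least abundant member that passed the filter. It had 41, 46 and 33 counts in shNC against 63, 70 and 60 in shRRM2, or 2.34, 1.99 and 2.00 CPM against 3.56, 3.52 and 3.31 CPM. The groups did not overlap, and the log2 fold change was 0.72 (SE 0.224, 95% interval 0.26 to 1.17, adjusted p = 0.00757).

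The CPM of the 2 groups did not overlap for 5 of the 6 tested members, where this held for 57.8% of all tested genes. The plot of levels by library shows these values with the genes below the filter beside them.

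**Figure D1:**
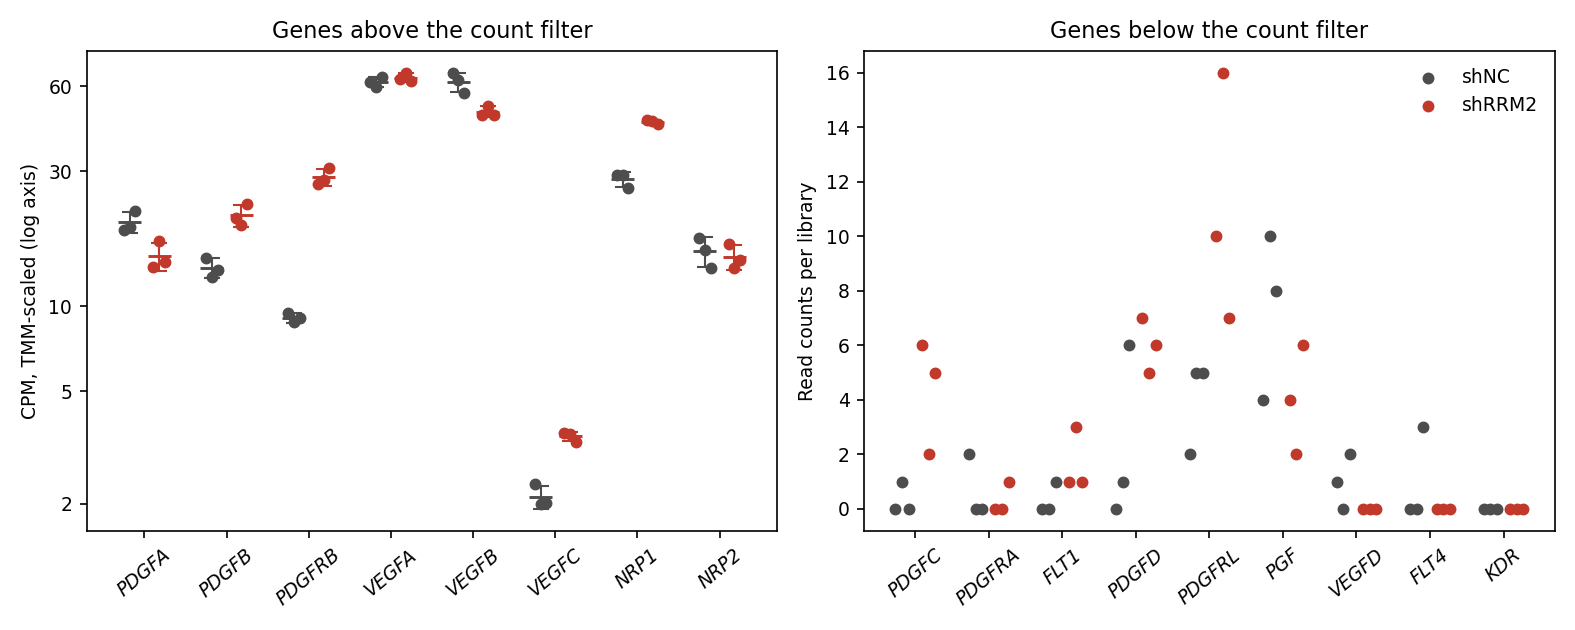
Left, CPM on TMM-scaled library sizes (log axis) of the 6 tested members and the neuropilins in each library, with the mean and SD (n = 3) as lines; right, read counts per library of the 9 family genes below the filter. PDGFRB sits near 9 CPM in shNC and near 29 CPM in shRRM2, while PDGFRA, FLT1, FLT4 and KDR have 0 to 3 counts in every library.

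Levels of different genes were compared per length, as CPM per kilobase of the longest transcript that GENCODE pairs with a RefSeq mRNA. In shNC the order was VEGFB at 45.1 ± 3.54, VEGFA at 17.6 ± 0.748, PDGFA at 8.59 ± 0.731, PDGFB at 3.90 ± 0.316, PDGFRB at 1.59 ± 0.0636 and VEGFC at 1.02 ± 0.0958 CPM per kilobase (SD, n = 3 each). No neighbours in this order overlapped. In shRRM2 the order was the same, with PDGFA at 6.52 ± 0.742, PDGFB at 5.98 ± 0.519 and PDGFRB at 4.99 ± 0.346 CPM per kilobase, but PDGFA and PDGFB now overlapped between libraries. These levels assume that the longest transcript is the one used, which counts per gene cannot show.

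Because some pairs of related genes moved apart, the ratio of their counts was taken within each library, where scaling between libraries cancels. The 4 pairs were chosen after their values were seen. The count ratio of PDGFB to PDGFA was 0.798, 0.664 and 0.620 in shNC and 1.49, 1.14 and 1.60 in shRRM2, a 2.02-fold difference of geometric means. PDGFA thus had more counts than PDGFB in every shNC library and fewer in every shRRM2 library. Counts are not scaled by length, and per kilobase the mean of PDGFA was still the higher in shRRM2 (6.52 against 5.98). The ratio of VEGFA to VEGFB was 0.929, 0.947 and 1.14 in shNC and 1.33, 1.31 and 1.32 in shRRM2, a 1.32-fold difference. For each of the 4 ratios the groups did not overlap, and a two-sided exact permutation test gave p = 0.1 (0.1 also when adjusted over the 4), the smallest value that 3 libraries against 3 allow. Because the pairs were picked on these same values, the test adds no support.

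**Figure D2:**
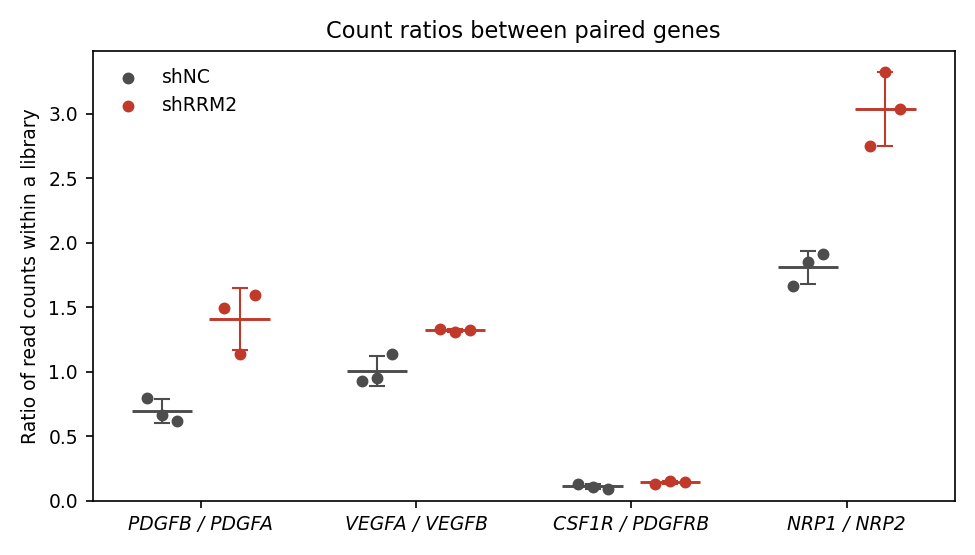
Ratio of read counts within each library for 4 pairs of genes, with the mean and SD (n = 3) of each group. The PDGFB to PDGFA ratio lies at 0.620 to 0.798 in shNC and 1.14 to 1.60 in shRRM2.

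Of the 8 other genes of both families, 2 passed the filter, and both are coreceptors. NRP1, which binds VEGFA and class 3 semaphorins, had 510, 674 and 430 counts in shNC against 805, 901 and 801 in shRRM2. It rose from 28.1 ± 1.77 to 45.0 ± 0.701 CPM (SD, n = 3 each; log2 fold change 0.67, SE 0.0676, adjusted p = 2.99e-10). NRP2, which is better known as a coreceptor for VEGFC, stood at 17.5, 15.8 and 13.7 CPM in shNC and 16.6, 13.6 and 14.6 CPM in shRRM2, with overlapping groups (log2 fold change −0.07, adjusted p = 0.604). The count ratio of NRP1 to NRP2 went from 1.67 to 1.91 in shNC to 2.75 to 3.32 in shRRM2.

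The receptors KDR and FLT4 were at the limit of detection, KDR with 0 counts in all 6 libraries and FLT4 with 0, 0 and 3 counts in shNC and 0 in each shRRM2 library. A count of 0 over the 3 libraries of a group allows up to 0.0519 CPM for shNC and 0.0545 CPM for shRRM2. The ligand VEGFD had 1, 0 and 2 counts in shNC and 0 in each shRRM2 library. PGF (placental growth factor), another FLT1 ligand, had 4, 10 and 8 counts in shNC against 4, 2 and 6 in shRRM2, with a ratio of summed counts of 0.573 (counting interval 0.259 to 1.21). PDGFD, the other chain that binds PDGFRB, had 0, 1 and 6 counts against 7, 5 and 6, a ratio of 2.70 (1.08 to 7.66). PDGFRL, a receptor-like protein without a kinase, had 2, 5 and 5 counts against 10, 16 and 7, a ratio of 2.89 (1.45 to 6.15). With no filter, none of FLT4, VEGFD, PGF, PDGFD and PDGFRL passed in edgeR, the smallest adjusted p being 0.0966 for PDGFRL.

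PDGFRB belongs to the class III receptor kinases, with KIT, CSF1R and FLT3. Of 7 other receptors and ligands of that class, 4 were tested, 3 rose and 0 fell (median log2 fold change 0.90), where over all tested genes 26.0% were higher and 26.1% lower and the median was −0.01. CSF1R, the receptor for macrophage colony-stimulating factor, had 21, 22 and 14 counts in shNC against 61, 85 and 82 in shRRM2, a rise of 2.02 in log2 fold change (SE 0.258, adjusted p = 4.60e-08). Its ligand CSF1 was at 20.4 and 22.3 CPM (adjusted p = 0.257). KITLG, the ligand of KIT, rose from 20.3 ± 2.50 to 34.9 ± 1.83 CPM. FLT3LG was far less abundant, with 16, 39 and 26 counts in shNC against 53, 53 and 52 in shRRM2, and rose by 1.01. The receptors of these 2 ligands, KIT and FLT3, had 0 counts in all 6 libraries.

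**Figure D3:**
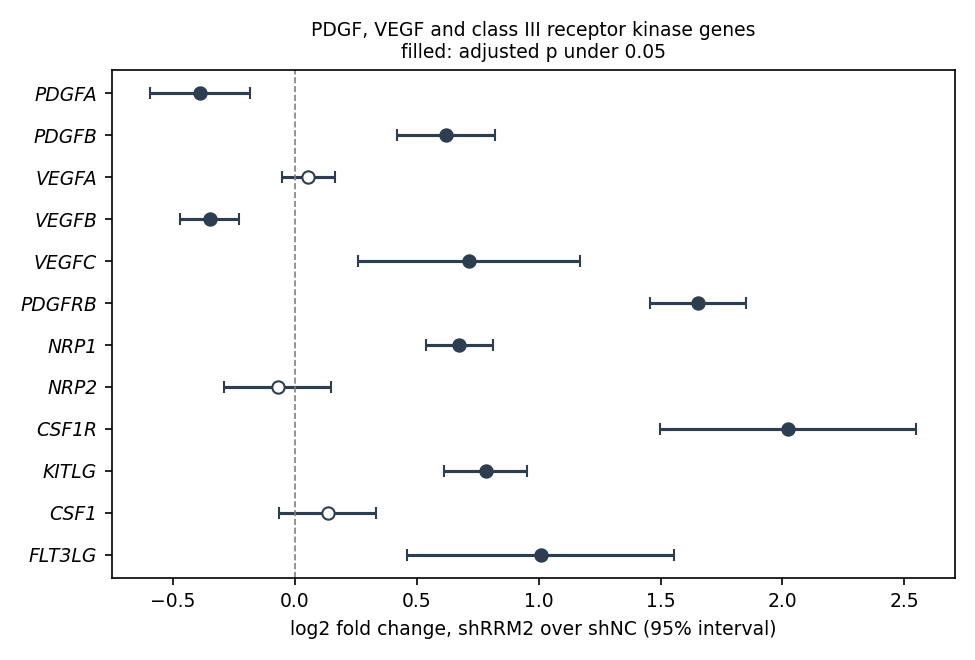
Log2 fold change of shRRM2 over shNC with its 95% interval for the tested PDGF and VEGF genes and the class III receptor kinase genes (x axis), filled where the adjusted p was under 0.05. PDGFRB at 1.65 and CSF1R at 2.02 lie furthest to the right, and the intervals of VEGFA, NRP2 and CSF1 include 0.

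CSF1R and PDGFRB are neighbours, with the end of PDGFRB 474 bases from CSF1R on chromosome 5. The count ratio of CSF1R to PDGFRB was 0.127, 0.109 and 0.0940 in shNC and 0.128, 0.153 and 0.147 in shRRM2, the nearest values of the groups being 0.127 and 0.128. Within 250 kb of PDGFRB, a window set after the values of CSF1R were seen, 8 other genes were tested, and 7 rose and 0 fell, against 26.0% higher and 26.1% lower over all tested genes. Of the 7, 3 (CAMK2A, SLC6A7 and the uncharacterised LOC124901207) reached the filter's minimum of 0.5596 CPM in every shRRM2 library but not in every shNC library, so the filter favoured a rise there. Of the 5 genes that reached it in all 6 libraries, 4 rose. CSF1R is among these 4, and since its values prompted the window, it adds no support to the count. LOC124901207 lies within the span of HMGXB3, and as the strand setting of the counting is not given, reads there may have been shared. CAMK2A, a calcium-dependent kinase, and SLC6A7, a proline transporter, rose by 1.72 and 1.21 from means under 1 CPM. The more abundant TCOF1, HMGXB3 and SLC26A2 rose by 0.29, 0.27 and 0.22, and TIGD6 was at 0.16 (adjusted p = 0.484). Whether these rises share a source was not tested.

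**Figure D4:**
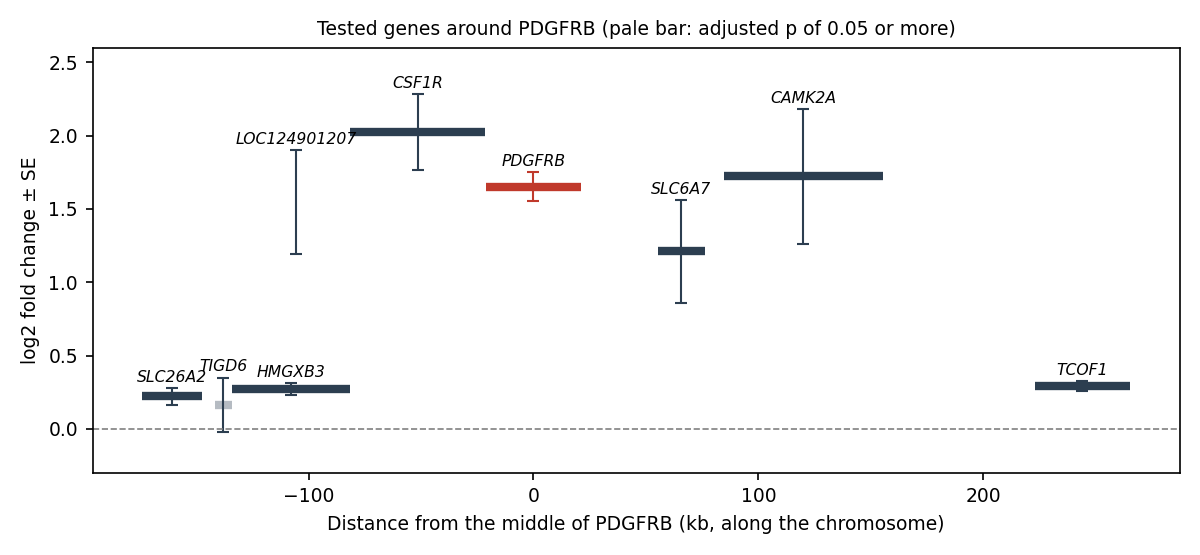
Log2 fold change (y axis, ± SE) of each tested gene within 250 kb of PDGFRB against its distance from the middle of PDGFRB in kb, each bar spanning the gene. All 9 values are above 0, from 0.16 for TIGD6 to 2.02 for CSF1R.

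Since PDGFRB is also a marker of stromal cells, markers of those cells were read beside it. The counts of each list stand against 26.0% higher and 26.1% lower over all tested genes. Of 10 pericyte and smooth muscle markers, 8 were tested, 3 rose and 0 fell, and their summed level went from 643 to 671 CPM in shNC to 716.5 to 725 CPM in shRRM2. Most of that sum came from MCAM, NOTCH3 and CSPG4. The 3 that rose were CSPG4 by 0.49, MCAM by 0.08 and ABCC9 by 0.98. ABCC9 had 11, 24 and 14 counts in shNC against 22, 35 and 37 in shRRM2. KCNJ8 had 0 counts in all libraries, and RGS5 had 13 to 21 and was not called. Of 10 fibroblast markers, 3 were tested, 2 rose and 0 fell, with a summed level of 20.0 to 21.6 CPM against 34.6 to 37.9 CPM, and PDPN had 0 counts. The 2 were COL1A1 and FAP. Of 10 endothelial markers, 4 were tested, 3 rose and 0 fell, with 67.7 to 74.0 CPM against 93.2 to 97.0 CPM, and PECAM1 had 0 to 6 counts. The 3 were CDH5, ESAM and VWF, while EGFL7 was not called (adjusted p = 0.669). CDH5 (21, 22 and 13 counts in shNC against 49, 54 and 46 in shRRM2) rose by 1.44 and ESAM by 0.76. Both reached the filter's minimum in all 6 libraries. FAP (8, 5 and 1 counts in shNC against 42, 20 and 33 in shRRM2) and the endothelial VWF (3, 11 and 7 against 41, 41 and 31) entered the test only through shRRM2, so their rises add no support to these counts. Of 10 immune markers, 2 were tested and rose, with 28.45 to 29.5 CPM against 84.0 to 87.5 CPM, most of it CD68. The immune markers CD3E, CD3D, MS4A1 and CD163 had 0 counts in all libraries and PTPRC had 0 to 3. The epithelial markers of the line itself were higher as well. Of 10, 8 were tested, 6 rose (among them EPCAM, which entered only through shRRM2) and 1 fell (median log2 fold change 0.72), with a summed level of 2943 to 3111 CPM against 4211 to 4259 CPM. MUC1, a membrane mucin, went from 466 ± 43.0 to 840.3 ± 4.98 CPM. The part of other cells in the rise of PDGFRB was not tested.

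Of 14 proteases and cofactors that release or bind the ligands, 11 were tested, 7 rose and 1 fell (median log2 fold change 0.21), against 26.0% higher and 26.1% lower over all tested genes. PLAU, the urokinase that can activate the D chain, rose from 3.80 ± 0.464 to 9.92 ± 0.334 CPM (log2 fold change 1.37, SE 0.150). CTSD, a lysosomal protease, rose by 0.53, ST14 (matriptase) by 0.35, and PLAT, the tissue plasminogen activator that cleaves the C chain, by 0.32. FURIN, which processes several PDGF and VEGF precursors, was chosen after its value was seen and stood at 266 CPM in both groups (adjusted p = 0.941). The 1 gene that fell, also named with its value known, was GPC1 at −0.12 (adjusted p = 0.0159), and this call was lost without shNC replicate 1 or 2, or shRRM2 replicate 2 or 3, and with library size alone.

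Downstream of the receptors, all 30 adaptors, kinases and phosphatases on the list were tested, and 11 rose and 8 fell (median 0.00). Over all tested genes 26.0% were higher and 26.1% lower, so these counts are no result about the list as a group. GAB2, a docking protein, rose from 10.2 ± 0.179 to 19.1 ± 3.14 CPM (log2 fold change 0.91, SE 0.114). The kinase subunit PIK3CB was lower at −0.64 (SE 0.0596), the adaptor CRKL at −0.53 and the phosphatase PTPN12 at −0.46. Without shNC replicate 2, 7 of the 30 were called higher.

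The regulators of VEGFA also split. Of 17 genes of the HIF pathway and of VEGFA transcription or RNA turnover, all tested, 5 rose and 6 fell (median −0.05). ARNT2, a partner of the HIF proteins, rose from 0.997 ± 0.0872 to 5.24 ± 0.944 CPM (log2 fold change 2.38, SE 0.242), and ZFP36L1, which promotes decay of AU-rich transcripts, rose by 0.59. HNRNPL was lower at −0.36, and the coactivator PPARGC1A at −0.52 (adjusted p = 0.0218). PPARGC1A did not pass without shNC replicate 2 or 3 (adjusted p = 0.0781 and 0.104) or without shRRM2 replicate 2 (−0.27, adjusted p = 0.122). Of 20 HIF targets, VEGFA among them, 19 were tested, 8 rose and 5 fell (median 0.16). For both lists the shares over all tested genes were 26.0% higher and 26.1% lower. The collagen hydroxylase gene P4HA2 rose by 1.35, ADM by 1.14, PFKFB4, which controls glycolytic flux, by 0.75 and P4HA1 by 0.73. The 5 that fell, named after their values were seen, were LDHA at −0.53 (adjusted p = 1.29e-17), PDK1 at −0.50, MXI1 at −0.39, PGK1 at −0.39 and ENO1 at −0.37. LDHA, PGK1 and ENO1 encode enzymes of glycolysis and lactate formation and are abundant, and ENO1 went from 3620 ± 99.2 to 2795 ± 61.8 CPM. The summed level of the list was accordingly lower, at 7334 to 7778 CPM in shNC against 5920 to 6018 CPM in shRRM2.

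Among 24 other factors that promote or restrain vessel growth, 16 were tested, 8 rose and 2 fell (median 0.13). Over all tested genes 26.0% were higher and 26.1% lower. The chemokine CXCL8 rose from 0.423 ± 0.122 to 2.45 ± 0.325 CPM, a log2 fold change of 2.48 (SE 0.363). SEMA3A, a semaphorin that binds NRP1, rose by 2.25. CXCL8 (6, 13 and 6 counts in shNC against 44, 42 and 50) and SEMA3A (10, 17 and 9 against 48, 66 and 54) reached the filter's minimum in every library of shRRM2 only, so the filter favoured a rise there too. Of the 14 genes that reached it in all 6 libraries, 6 rose and 2 fell. Among these, the angiogenesis inhibitor THBS1 rose by 1.66 and SPARC, a matrix protein that binds PDGF chains, by 1.46. The 2 that fell, named after their values were seen, were TYMP (thymidine phosphorylase) at −0.85 (adjusted p = 1.81e-07) and SEMA3F at −0.11 (adjusted p = 0.0375). SEMA3F was not called without shNC replicate 1 or 3, or shRRM2 replicate 2 or 3, nor with library size alone, no filter, the filter of 1 CPM, DESeq2 or an adjusted p of 0.01.

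**Figure D5:**
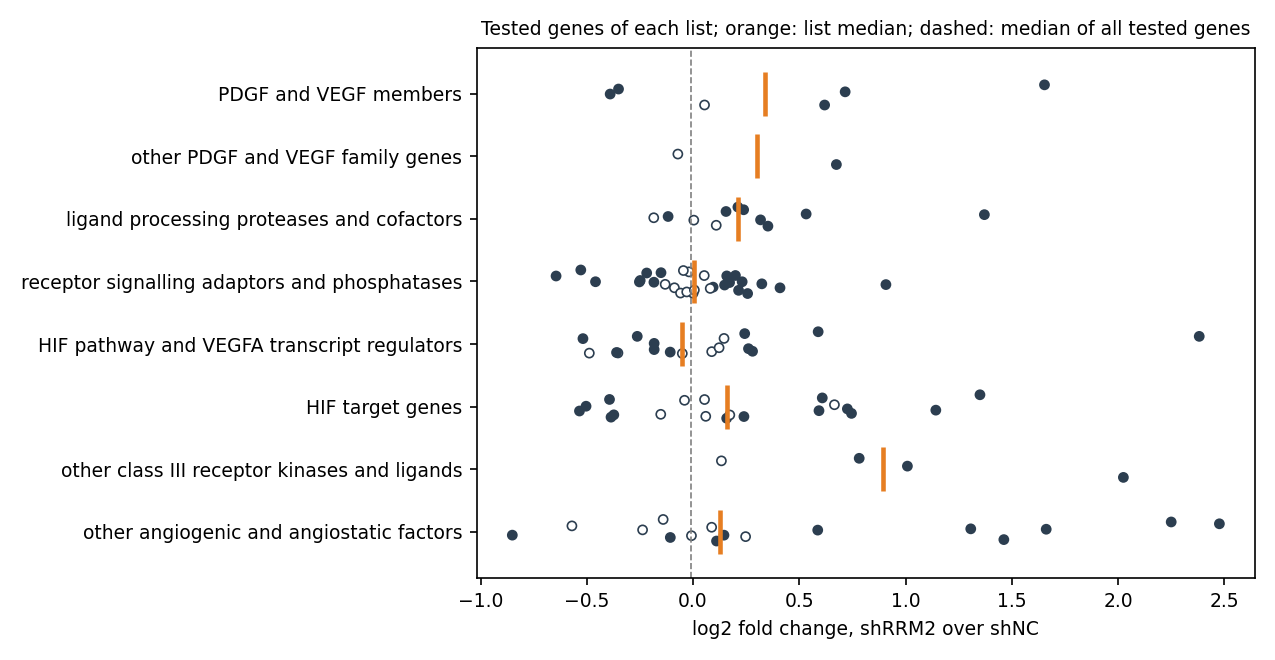
Log2 fold change of shRRM2 over shNC (x axis) for the tested genes of each list (rows), filled where the adjusted p was under 0.05, with the list median in orange and the median of all tested genes as a dashed line. Each list other than the class III receptor kinase list has members on both sides of 0.

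The 3 genes whose log2 CPM followed PDGFRB most closely over the 6 libraries were SSR2, B2M and DSP, with Pearson's r of 0.9996, 0.9994 and 0.9992. Their log2 fold changes were 0.19, 0.30 and 0.38, far smaller than that of PDGFRB, since r ignores the size of a change. With 2 groups of 3 libraries most of this likeness is the split between groups, and 1862 tested genes had r above 0.95.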

How the data were processed

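RNA of 6 PANC-1 libraries was measured by poly(A)-selected sequencing with a directional NEB kit, per the labels' protocols. The authors deposited whole-number read counts per NCBI Gene ID. The submitters' processing notes name fastp 0.23.4, featureCounts and the build hg38. Which aligner, annotation and strand or multi-mapping settings were used is not given in the sources used here. Columns named si-RRM2 were taken as the shRRM2 samples of the same number. No column was left over.

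Of 42902 Gene IDs, 40120 matched a RefSeq symbol (GRCh38.p14). Unmatched IDs held 1.25% of counts and stayed in the fit. Genes were kept with filterByExpr at its defaults, scaled with TMM and tested with edgeR 4.0.16 in R 4.3.3 (robust quasi-likelihood, group alone, two-sided, Benjamini-Hochberg over 15866 genes). SE is the size of the log2 fold change over the square root of F. A call means an adjusted p under 0.05. The procedure was run on simulated data with far fewer changed genes than were called here, so that run does not test the shares called. Library totals were 16606947 to 23300433 counts, and a count of 0 allows up to 0.129 to 0.181 CPM.

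The members and lists were chosen with earlier results of these data known. Named genes were the members, the 8 other family genes, RRM2, in each other list up to 4 called genes with the largest change and a mean of at least 1 CPM in either group, and the 3 genes most correlated with the member of smallest p. Lists are given by counts and medians, without a set test. Alternatives were DESeq2 1.42.0, limma-voom 3.58.1, RLE factors, unscaled library sizes, no filter, a filter of 1 CPM in 3 libraries, a block for the replicate number, each library left out in turn, and an adjusted p of 0.01. Leaving out libraries for the ratios was added after the data were seen.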

Additional observations from a re-analysis of the deposited data

How the results depend on the processing

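All 6 tested members kept their direction and their side of the threshold in all 14 alternatives, with log2 fold changes of 1.60 to 1.69 for PDGFRB, 0.56 to 0.68 for PDGFB, 0.67 to 0.79 for VEGFC, −0.48 to −0.32 for PDGFA, −0.41 to −0.30 for VEGFB and 0.02 to 0.09 for VEGFA. The counts of 3 members higher and 2 lower were the same in each. Same-numbered libraries did not deviate together (correlations of −0.0068, −0.0034 and −0.021), and with the replicate block 4102 genes were higher and 4142 lower, against 4119 and 4143. Leaving out 1 library gave 3754 to 4031 higher and 3736 to 3944 lower.

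Some list counts changed by more than 1.5 times, and the cause was not tested. Among ligand-processing genes the number lower was 0, in place of 1, with library size alone and at an adjusted p of 0.01, and 0 to 1 when leaving out 1 library. Among other angiogenic factors the number lower was 1, in place of 2, with library size alone, no filter, the filter of 1 CPM, DESeq2 and an adjusted p of 0.01, and 1 to 2 when leaving out 1 library. Adaptors called higher numbered 7 at an adjusted p of 0.01 and 7 to 11 when leaving out 1 library. Other family genes called higher numbered 1 to 2, because PDGFRL entered the smaller filter and passed without shNC replicate 3 (adjusted p = 0.0408) and also without shRRM2 replicate 3 (adjusted p = 0.0303). It entered through the group where it was higher, so this adds no support. NRP2 went from −0.16 to 0.0072 when leaving out 1 library, reversed only without shNC replicate 1 (adjusted p = 0.968), and was never called. FURIN, also never called, ranged from −0.026 to 0.020 when leaving out 1 library, reversed without shNC replicate 3 or shRRM2 replicate 2, and was at 0.041 with library size alone. The log2 ratio difference of PDGFB to PDGFA was 0.92 to 1.16 when leaving out 1 library, and that of VEGFA to VEGFB 0.35 to 0.49. Depth limits PDGFC, PDGFRA and FLT1, which had 14, 3 and 6 counts over all libraries.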
